A study of Mus musculus with 16 samples.

Results

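Akr1c18 and Akr1e1 are mouse genes of the aldo-keto reductase superfamily, and they were measured here in NIH3T3 fibroblasts treated with azacytidine. They were chosen by their low log2 ratios in Erbb2-transfected cells, so their values there are given as a description with no test. The test rests on the untransfected cells, with a spread estimated over the arrays of all groups. Of the 20355 probes on the array, 3 carried either symbol alone, namely probe2307 for Akr1c18 (Entrez Gene 105349) and probe11267 and probe12109 for Akr1e1 (56043). The array named 9930 genes in all by a single symbol.

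Aldo-keto reductases fold as a barrel and use NADPH to reduce aldehydes and ketones of sugars, steroids, prostaglandins and breakdown products of lipids to alcohols. Akr1c18 is a hydroxysteroid dehydrogenase that turns progesterone into a much less active alcohol, and in the mouse it is best known from the corpus luteum, where it rises before birth. Akr1e1 reduces anhydrofructose, a sugar that comes from the breakdown of glycogen. Azacytidine replaces cytosine in DNA and RNA and binds DNA methyltransferases covalently, so that CpG methylation is lost as cells divide.

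On each of the 16 cDNA arrays, RNA from azacytidine-treated cells competed with RNA from the same line left untreated, in 2 dyes. Erbb2-transfected NIH3T3 cells, which carry the Erbb2 receptor tyrosine kinase, had 8 arrays for the 10 µM dose and 4 arrays for the 5 µM dose, and NIH3T3 cells without the transgene had 4 arrays for 10 µM. Within each group, 50% of the arrays had Cy5 as the label of the treated RNA and the others Cy3. The sources used here do not give the promoter driving Erbb2, the number of clones, the time of treatment or whether replicate arrays had their own cultures, and p-values measure only the spread between arrays. The extraction and labelling texts speak of organs and a pool of animals. A ratio holds no level, so fibroblast identity could not be checked by marker levels, and Erbb2 had 0 probes under its symbol. An array gave between 16153 and 18507 ratios with an interquartile range of 0.71 to 1.36 on the log2 scale.

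Both genes lie on the minus strand of mouse chromosome 13 in RefSeq's annotation of GRCm38.p6, Akr1c18 at chr13:4132615-4150646 and Akr1e1 at chr13:4591123-4609164, with 440476 bases between them. Their promoters are shown because the drug acts on CpG sites and because both genes had low ratios in the same cells. The 250 bases before each RefSeq start, chr13:4150647-4150896 for Akr1c18 and chr13:4609165-4609414 for Akr1e1, are printed on the minus strand, with CpG dinucleotides in capitals.
Akr1c18: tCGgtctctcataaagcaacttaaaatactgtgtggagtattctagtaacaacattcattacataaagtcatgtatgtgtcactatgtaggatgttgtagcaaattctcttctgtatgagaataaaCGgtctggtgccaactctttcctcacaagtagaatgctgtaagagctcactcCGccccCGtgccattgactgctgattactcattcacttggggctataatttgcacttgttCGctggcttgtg
Akr1e1: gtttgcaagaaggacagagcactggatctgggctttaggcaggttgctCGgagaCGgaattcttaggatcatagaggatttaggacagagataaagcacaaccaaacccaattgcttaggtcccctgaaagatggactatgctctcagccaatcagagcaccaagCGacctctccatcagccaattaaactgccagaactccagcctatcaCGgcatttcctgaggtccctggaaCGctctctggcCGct
The Akr1c18 window held 5 CpGs and the Akr1e1 window 6, against a median of 6 over 32851 RefSeq mouse promoter windows of that length. At least 5 CpGs were found in 55.6% of those windows and at least 6 in 50.4%. The GC content was 41.6% for Akr1c18 and 50.8% for Akr1e1, against a median of 52.4%. Read on both strands, Akr1c18 had 1 GGGCGG, found in 32.7% of windows, and 1 TATAA, found in 22.8%. Akr1e1 had 3 copies of CCAAT, a count reached by 2.79% of windows, and neither GGGCGG nor TATAA. TGACNNNGC, the core of the antioxidant response element, was in 10.2% of windows and in neither of these. These matches are descriptions of letters, and methylation was not measured.

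All further values are log2 ratios, treated over untreated. The numerator of the deposited ratios is not stated. Directions are therefore the likely ones, on the reading that the deposited values are Cy5 over Cy3 and that channel 1, the treated RNA, carries the dye of its label. On the 12 arrays of Erbb2 cells the most frequent value lay between -0.770 and -0.018, and it was below 0 on 6 of 6 arrays whose treated RNA was labelled Cy5 and on 6 of 6 labelled Cy3. The most frequent values of an array were spaced as log2 ratios of small whole numbers, so on these arrays the most frequent one was read as equal intensities after centring. On that reading the numerator channel was the brighter before centring under both labels, which a fixed dye in the numerator would give, and so would brighter treated RNA on every array. By the most frequent value the reading could not be carried to the 4 untransfected arrays, where it was -0.172, 0.125, -0.017 and 0.166, on both sides of 0. A second inferred place of equal intensities is 16.61 less than a high value that each array repeats far above its other values, and that was set to missing here. On the Erbb2 arrays it lay within 0.0015 of the most frequent value. On the untransfected arrays it lay 1 log2 unit lower than that value, at -1.172, -0.875, -1.017 and -0.834. These 4 were below 0 under both labels, and which of the 2 places marks equal intensities there is unknown. In the untransfected group the labels name one dye for both channels of an array, which adds a doubt about the sign of that group.

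The dependence on the dye was plain in the deposited numbers of Akr1c18. On arrays where Cy5 marked the treated RNA, Erbb2 cells had deposited values of -0.72, -0.98, -1.13 and -0.78 at 10 µM and of -0.82 and -1.02 at 5 µM. Where Cy3 marked it they had 1.46, 1.08, 1.27 and 1.33 at 10 µM and 0.93 and 0.73 at 5 µM. The sign followed the dye label on all 12 arrays of Erbb2 cells, as it did for probe11267 of Akr1e1. Whether the ratios had already been turned to treated over untreated before deposit is not stated, and in that case the same signs would follow the dye and not the drug. These cases cannot be told apart from the 2 genes alone. Over the 7763 features with a value on all 12 arrays of Erbb2 cells, 136 (1.75%) were below 0 on every array once the Cy3-labelled arrays, those with Cy3 on the treated RNA, were turned, and 20 (0.258%) as deposited.

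**Figure D1:**
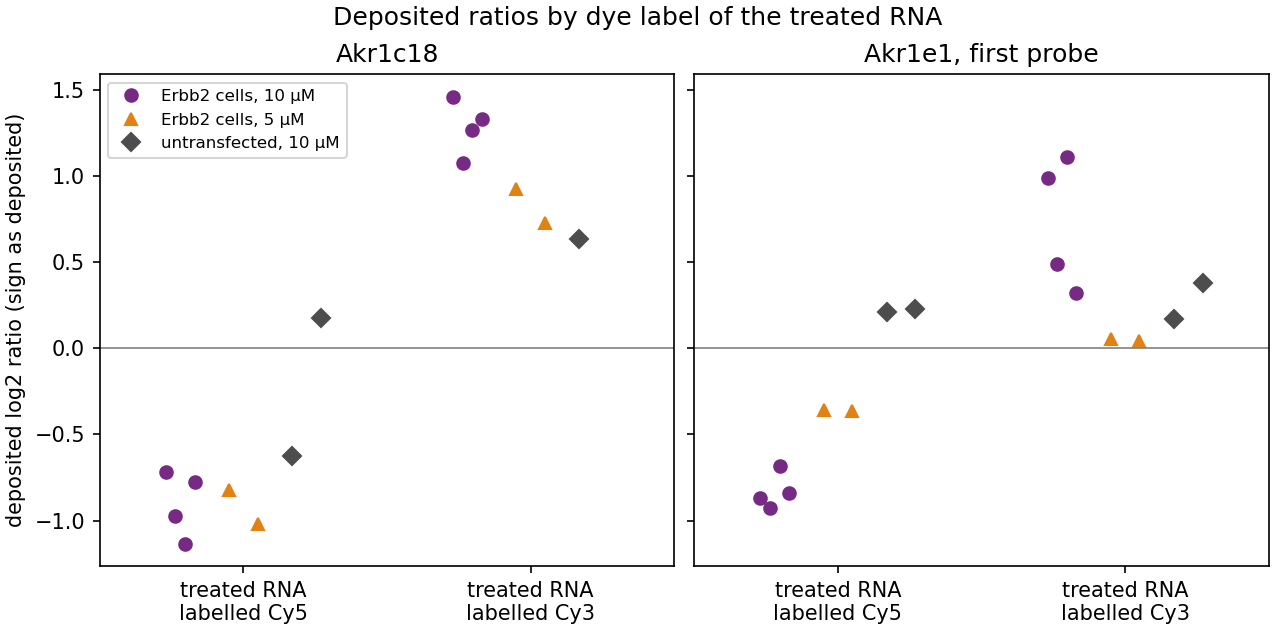
Deposited log2 ratios (vertical axis, sign as deposited) of Akr1c18 and of probe11267, the first Akr1e1 probe, by the dye label of the treated RNA, with a point for each array and a marker for each group. Erbb2 cells lie below 0 under Cy5 and above 0 under Cy3 for both genes, while the 4 untransfected values of Akr1e1 all lie above 0, from 0.17 to 0.38.

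In Erbb2 cells at 10 µM, Akr1c18 RNA was at 46.9% of the untreated level by the mean log2 ratio of -1.09 ± 0.26 (SD, n = 8). The lowest, median and highest arrays had -1.46, -1.11 and -0.72, so all 8 lay below 0. The 4 Cy3-labelled arrays averaged -1.28 ± 0.16 and the 4 Cy5-labelled ones -0.90 ± 0.19 (SD), and the ranges of both sets overlapped, with -1.08 the highest of the first and -1.13 the lowest of the other. At 5 µM the 4 arrays had -0.82, -1.02, -0.93 and -0.73, a mean of -0.87 ± 0.13 (SD, n = 4) or 54.6% of the untreated level. All 4 lay within the range of the 10 µM arrays, and the fitted difference of 10 µM minus 5 µM was -0.22 ± 0.21 (SE). As background, 0.862% of the 12420 features tested passed as lower at 10 µM and 0.0322% at 5 µM, at a limma adjusted p under 0.05.

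Akr1e1 was read by probe11267. At 10 µM its mean log2 ratio was -0.78 ± 0.26 (SD, n = 8), or 58.2% of the untreated level, and the lowest, median and highest arrays had -1.11, -0.86 and -0.32. All 8 arrays lay below 0. The spread was wider on Cy3-labelled arrays, at -0.73 ± 0.38, than on Cy5-labelled ones, at -0.83 ± 0.10 (SD, n = 4 each). At 5 µM the values were -0.36 and -0.37 on Cy5-labelled arrays and -0.05 and -0.04 on Cy3-labelled ones. All 4 lay below 0, and their mean of -0.20 ± 0.18 (SD, n = 4) corresponds to 86.8% of the untreated level. The arrays in Cy3 were near 0, so at the lower dose the ratio of Akr1e1 rested on the 2 arrays in Cy5. The fitted difference of 10 µM minus 5 µM was -0.58 ± 0.21 (SE), and the highest value at 10 µM, -0.32, lay above the lowest at 5 µM. For the comparison of doses, 0% of features passed in limma, with 538 at an unadjusted p under 0.05.

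The second Akr1e1 probe, probe12109, did not show this. It had a value on 12 of 16 arrays, too few to enter the fit, since only 2 of the 4 arrays at 5 µM had one. At 10 µM its lowest, median and highest ratios were -1.69, 0.18 and 5.46, with 3 of 6 below 0, and at 5 µM it had 0.67 and 0.47. In untransfected cells it had 2.50, 0.17, -0.52 and -0.90. On 2 of its 12 arrays the deposited value lay within 0.0015 log2 units of a ratio of 2 to 1 in one direction or the other, counted from the place of equal intensities inferred from the repeated high value. At that tolerance none of the 15 values of probe2307 or the 16 of probe11267 fell on a ratio of whole numbers up to 5, and between 3.58% and 5.69% of all values of an array did. Intensities are not in the deposited table, so the signal behind any of these ratios is unknown. Every further statement on Akr1e1 is one on probe11267.

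**Figure D2:**
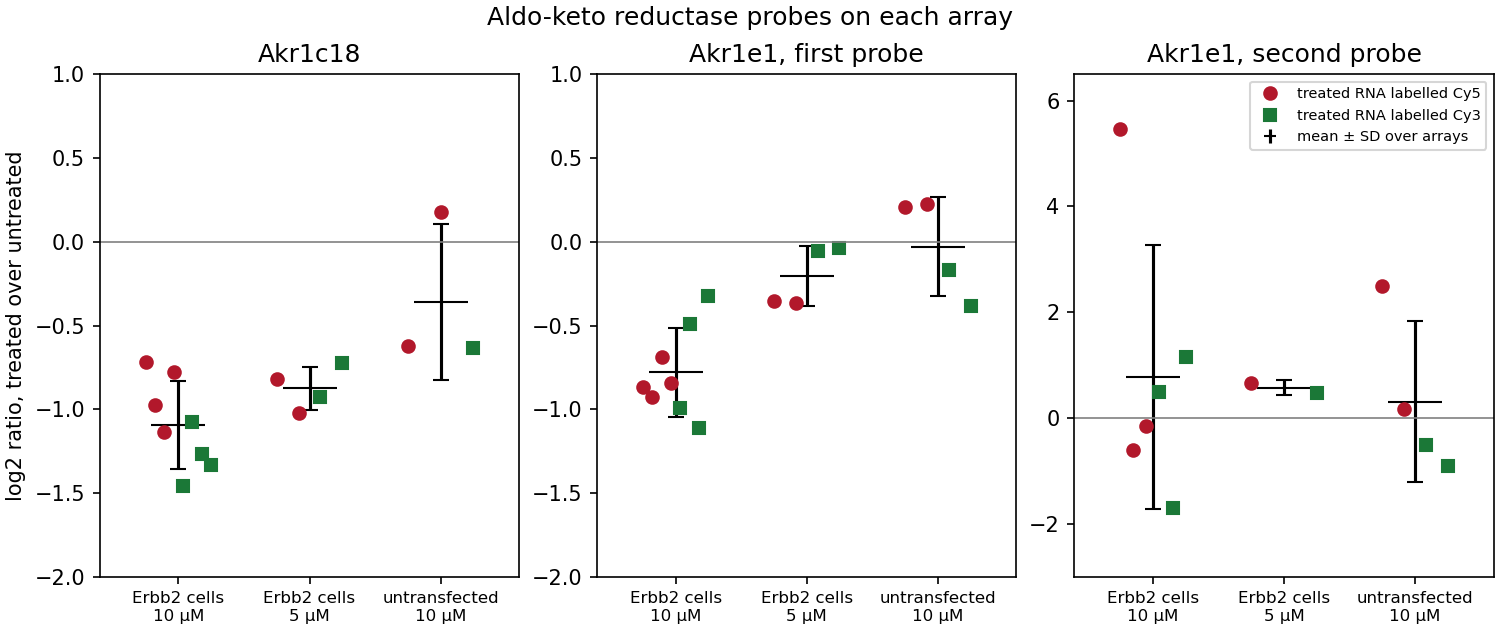
Log2 ratios of treated over untreated cells (vertical axis) on each array for the 3 probes (probe11267 is the first Akr1e1 probe and probe12109 the second), in Erbb2 cells at 10 µM, Erbb2 cells at 5 µM and untransfected cells at 10 µM, with the dye of the treated RNA as colour and shape and the mean ± SD as bars. Akr1c18 and probe11267 of Akr1e1 lie below 0 on all 12 arrays of Erbb2 cells, while probe12109 of Akr1e1, on its own wider axis, runs from -1.69 to 5.46.

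The arrays of untransfected cells were not used to pick these genes, and there neither gene passed. Akr1c18 had -0.62 and 0.18 on Cy5-labelled arrays and -0.63 on the 1 Cy3-labelled array that held a value. Of these 3 values 2 lay below 0, close to each other, and the third above 0. The fitted value was -0.40 ± 0.20 (SE, n = 3), with a 95% interval from -0.83 to 0.02 and a limma adjusted p of 0.470 over all features (0.0619 unadjusted). Without array 2 it was -0.63 and without array 1 -0.23, and neither passed in limma (adjusted p of 0.267 and 0.963). Akr1e1 had 0.21 and 0.23 on Cy5-labelled arrays and -0.17 and -0.38 on Cy3-labelled ones. The sign thus split by dye, and the fitted value was -0.03 ± 0.17 (SE, n = 4), with a 95% interval from -0.39 to 0.34 and a limma adjusted p of 0.998. Without array 3 or without array 4 it was 0.02 or 0.10. Of the 12420 features, 2.73% passed in untransfected cells, 2.13% as lower and 0.596% as higher, so 0 calls among 2 genes are near that background. If the treated RNA of these arrays was in the other dye, the values become 0.40 for Akr1c18 and 0.03 for Akr1e1, with the same p-values, and the 265 lower and 74 higher features become 265 higher and 74 lower. A value that did not pass does not show that the gene was unchanged, and the interval of Akr1c18 reaches a level 1.78-fold lower.

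Set side by side at 10 µM, Erbb2 cells minus untransfected cells gave -0.69 ± 0.23 for Akr1c18 and -0.75 ± 0.21 for Akr1e1 (SE). With the other dye in the untransfected cells these differences would be -1.50 and -0.81, so Erbb2 cells were the lower under both readings of that label. The choice of the genes used the Erbb2 arrays of this difference, and it is given with no test. As background, 0.813% of features passed in this contrast, 0.628% as higher and 0.185% as lower. Akr1c18 was at most -0.72 in Erbb2 cells and at least -0.63 in untransfected cells, where only 3 arrays held a value. These ranges did not overlap, by a gap smaller than the SD within either line. The share of all features with ranges apart was not counted, and the choice of the gene favours such a gap. Akr1e1 was at most -0.32 in Erbb2 cells and at least -0.38 in untransfected cells, so its ranges overlapped.

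Of 19 other aldo-keto reductase genes listed, chosen with earlier results of these data known, 8 were on the array and 7 had enough values to be tested. The relatives did not pass in any group, with 0 of 7 higher and 0 of 7 lower in limma in Erbb2 cells at either dose or in untransfected cells. Over all features 1.26%, 0.209% and 2.73% passed in those groups. The median of the 7 was -0.12 for the higher dose, -0.07 for the lower dose and -0.22 for untransfected cells, against -0.00, -0.02 and 0.03 over all features. The smallest limma adjusted p of the list was 0.150, 0.472 and 0.210 in the same order, and 1 of 7 had an unadjusted p under 0.05 in each group, against 10.8%, 6.33% and 11.5% of all features.

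Akr1c21, a hydroxysteroid dehydrogenase whose gene neighbours Akr1e1, was the nearest to passing at 10 µM. Its fitted ratio was -0.45 ± 0.13 in Erbb2 cells at 10 µM and -0.27 ± 0.17 in untransfected cells (SE), with 9 of 11 values from Erbb2 arrays below 0. Akr1a1, the aldehyde reductase that serves vitamin C synthesis in the mouse, had -0.28 ± 0.18 in Erbb2 cells at 10 µM and -0.68 ± 0.23 in untransfected cells. On the 4 untransfected arrays it ran from -0.72 to -0.65, a narrow range below 0 under both dyes, with a limma adjusted p of 0.210, and it passed without array 5 of Erbb2 cells at 10 µM (limma adjusted p of 0.0351). Akr1c19, another member of the same subfamily, had the reverse sign of Akr1c18 at 10 µM, 1.02 ± 0.57, on 6 arrays that ran from -0.71 to 4.87. Akr1b8, an aldose reductase relative first known as induced by a fibroblast growth factor, had 0.04 ± 0.31 at 10 µM and 1.56 ± 0.50 at 5 µM, where 1 of 3 arrays was at 3.67. Akr7a5, a reductase of toxic aldehydes, had -0.12 ± 0.20, and the potassium channel beta subunits Kcnab1 and Kcnab2, which keep the reductase fold, had -0.56 ± 0.35 and 0.35 ± 0.34 in Erbb2 cells at 10 µM. Both Akr1c18 and Akr1e1, picked for low ratios in these cells, were below 0 on 12 of 12 arrays of Erbb2 cells. The relatives were below 0 on 2 of 9 (Akr1c19) to 9 of 11 (Akr1c21) or 9 of 12 (Akr7a5). At 10 µM alone Akr1c21 was below 0 on 7 of 7 arrays, Akr1a1 on 6 of 7 and Akr7a5 on 6 of 8. Kcnab1 and Kcnab2 were below 0 on 5 of 8 each, Akr1b8 on 4 of 8 and Akr1c19 on 2 of 6. Genes of the Akr1c subfamily are close copies of each other, and whether the Akr1c18 probe also bound RNA of its relatives was not tested, since probe sequences were not used here.

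**Figure D3:**
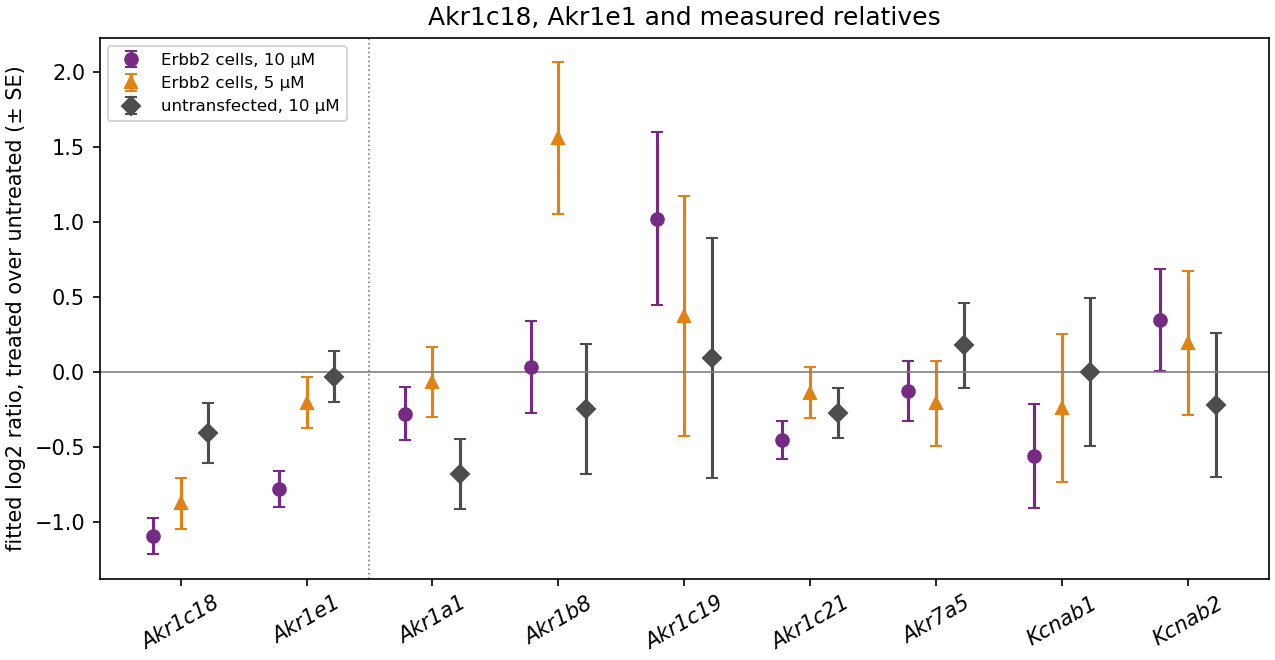
Fitted log2 ratios of treated over untreated cells ± SE (vertical axis) of Akr1c18, Akr1e1 and the 7 measured relatives, with a marker for each of the 3 groups. Akr1c18 and Akr1e1, left of the dotted line, have the lowest values in Erbb2 cells at 10 µM, -1.09 and -0.78, which is what they were picked for, and the relatives lie on both sides of 0 with SEs of 0.13 to 0.57.

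The 2 genes sit in a cluster that holds 9 genes of the Akr1 family within 2 Mb of either, of which 4 were on the array. Among 12 annotated genes between them, Akr1c19 and Akr1c21 were on the array. All 10 other genes of that window with probes were tested, and 0 of 10 passed in any group in limma, with smallest adjusted p of 0.150 for the higher dose, 0.863 for the lower dose and 0.230 for untransfected cells. At an unadjusted p under 0.05 there were 1, 0 and 1 of them in the same order. Over all features 1.26%, 0.209% and 2.73% passed and 10.8%, 6.33% and 11.5% had such an unadjusted p, so these counts are near the background. Their medians were -0.11, -0.06 and -0.01 in that order. On one side of Akr1c18 the nearest measured gene was Net1, a guanine nucleotide exchange factor for RhoA (-0.30 ± 0.15 at 10 µM). Genes without probes, Akr1c14 among them, lie between Net1 and Akr1c18. Beyond Net1 lie the calmodulin-like genes Calm4 (0.18 ± 0.30) and Calml3 (-0.03 ± 0.52). Gdi2, which recycles Rab proteins, had -0.43 ± 0.33 and the ubiquitin ligase adaptor Asb13 -0.43 ± 0.23. Beyond Akr1e1 lie the transcription factor Klf6 (0.24 ± 0.26), the mitochondrial protease Pitrm1 (-0.15 ± 0.23) and phosphofructokinase Pfkp (-0.08 ± 0.21). None of these was as far from 0 as Akr1e1 except Akr1c19, whose SE was 0.57. Akr1e1 was picked for its low ratio in Erbb2 cells and the neighbours were not, so the choice itself favours this order.

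**Figure D4:**
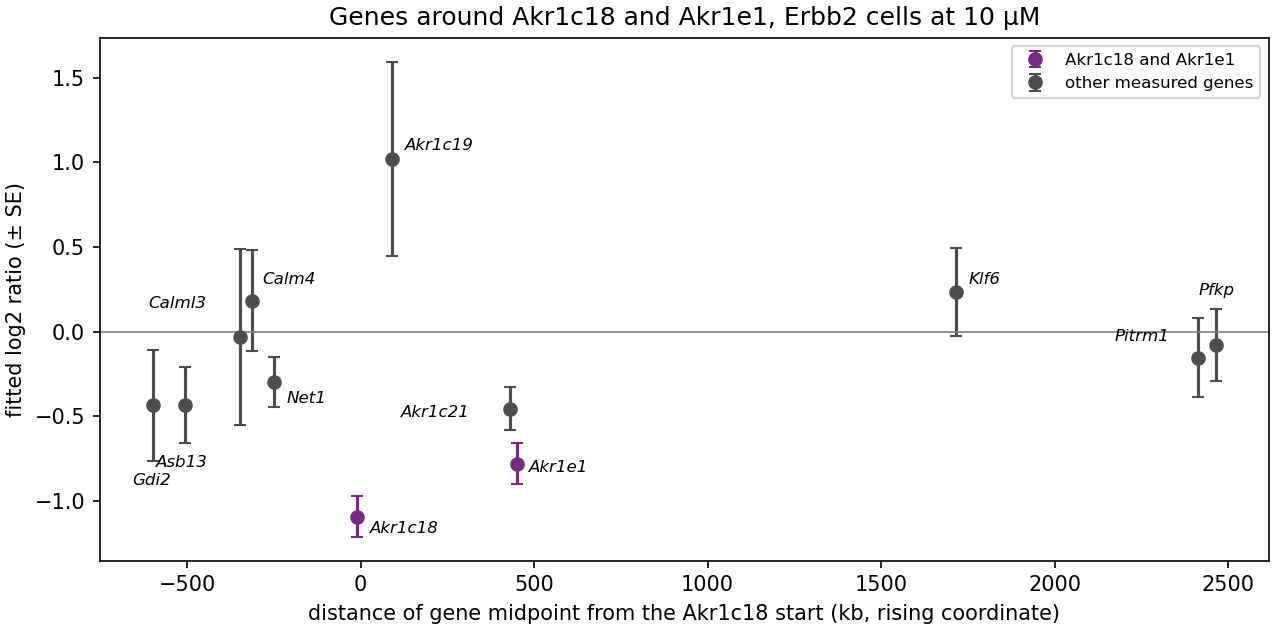
Fitted log2 ratios ± SE (vertical axis) in Erbb2 cells at 10 µM for Akr1c18, Akr1e1 and the 10 other measured genes within 2 Mb, against the distance of each gene's midpoint from the start of Akr1c18 in kb (horizontal axis). The neighbours run from -0.45 (Akr1c21) to 1.02 (Akr1c19), and 0 of 10 passed the test.

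Genes of the pathways in which these enzymes work were tested from lists. Of 19 measured genes of steroid synthesis and metabolism, 0 passed in limma in any group, with medians of 0.06 for the higher dose, -0.06 for the lower dose and 0.12 for untransfected cells. In untransfected cells this count rested on the settings, since Pgrmc2, a membrane-bound relative of a progesterone-binding protein, passed as lower without array 7 of Erbb2 cells at 10 µM (-0.72, limma adjusted p of 0.0491). Over features with a value on all 16 arrays Pgrmc2 (-0.72, limma adjusted p of 0.0438) and Hsd11b1, which regenerates active glucocorticoid (0.50, limma adjusted p of 0.0489), passed there, and with each probe fitted alone a probe of Pgrmc2 did (-1.29, limma adjusted p of 0.00136). Of 9 measured genes of prostaglandin synthesis and breakdown, 0 passed, with medians of 0.21, -0.06 and 0.26 in that order. Of 15 other carbonyl and quinone reductases and aldehyde dehydrogenases 0 passed, with medians of -0.21, -0.04 and 0.11, and of 7 enzymes that supply NADPH 0 passed, with medians of -0.21, -0.08 and 0.02. Against 1.26%, 0.209% and 2.73% of all features, lists of this size would hold few calls. At an unadjusted p under 0.05 there were 2, 2 and 3 genes of steroid metabolism, 0, 1 and 1 of prostaglandins, 3, 0 and 0 of the other reductases and dehydrogenases, and 1, 2 and 1 of NADPH supply, in the order of the medians. Over all features that share was 10.8%, 6.33% and 11.5%, and the counts were not tested against it. Of 12 measured genes of glycogen turnover, the source of the sugar that Akr1e1 reduces, 1 fell in Erbb2 cells at 10 µM and 0 passed in the other groups (1 in each at an unadjusted p under 0.05), with medians of -0.05, -0.06 and -0.25. It was Pgm1, the phosphoglucomutase that links glycogen with glycolysis, at -0.80 ± 0.15 (SE, n = 8, limma adjusted p of 0.0134). Pgm1 had -0.39 ± 0.21 at 5 µM and -0.44 ± 0.21 in untransfected cells and did not pass there. Without arrays 3, 5 and 6, which had the widest spread at 10 µM, it did not pass at 10 µM either. Nor did Pgm1 pass with the 10 µM group of Erbb2 cells fitted on its own arrays. With each probe fitted alone, a probe of Gyg, another gene of this list, passed as lower in untransfected cells (-0.73, limma adjusted p of 0.0279).

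Of 11 fibroblast markers measured, the matrix protein gene Sparc rose in Erbb2 cells at 10 µM (0.68 ± 0.11, limma adjusted p of 0.00335), 0 passed at 5 µM (3 at an unadjusted p under 0.05), and 4 fell in untransfected cells. Over all features 1.26%, 0.209% and 2.73% passed in these groups, and 6.33% had an unadjusted p under 0.05 at the lower dose. The 4 were fibronectin Fn1 (-1.63 ± 0.20), lysyl oxidase Lox (-1.06 ± 0.18), Col1a2 (-0.79 ± 0.19) and vimentin Vim (-0.55 ± 0.14). Fn1 and Lox passed whichever of the 16 arrays was left out, while of these 16 fits Col1a2 passed only in those without array 3, 4, 5 or 6 of Erbb2 cells at 10 µM, and Vim only in those without array 3 or 6. Of 9 epithelial and blood cell markers, Krt8 rose in untransfected cells (1.13 ± 0.27) and 0 passed in Erbb2 cells at either dose (0 at 10 µM and 1 at 5 µM at an unadjusted p under 0.05). With the treated RNA of untransfected cells in the other dye these signs turn, to 1.63 for Fn1, 1.06 for Lox, 0.79 for Col1a2, 0.55 for Vim and -1.13 for Krt8. Krt8 did not pass without array 1 or 2 of Erbb2 cells at 10 µM, array 3 at 5 µM or any single untransfected array. The 0 at 5 µM rested on the settings too. Vim passed there as lower over features with a value on all 16 arrays (-0.61, limma adjusted p of 0.036). It also did with arrays scaled to one median absolute deviation (-0.69, limma adjusted p of 0.039). In these 2 settings Krt18 passed as higher in untransfected cells (0.83 and 0.87, limma adjusted p of 0.029 and 0.041). With each group fitted on its own arrays, 0 genes of both marker lists passed in any group, so Sparc, Fn1 and Lox did not. Of all features 22, 0 and 0 passed in those fits, for the higher dose, the lower dose and untransfected cells. The medians of the fibroblast list were 0.05, 0.09 and -0.31, and those of the epithelial and blood cell list 0.01, 0.04 and 0.24, in the order used for the pathway lists. The part of these markers in the values of Akr1c18 and Akr1e1 was not tested.

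The genes with ratios most like those of Akr1c18 over its 15 arrays, by the root mean square difference of log2 ratios, were St13, a cofactor of the Hsp70 chaperone (0.36), Zcchc4, a zinc finger gene whose human product methylates ribosomal RNA (0.36), the nucleolar chaperone Npm1 (0.45), pyruvate kinase Pkm (0.50) and aldolase Aldoa (0.50). The median difference over the 5034 genes compared was 1.14. St13 had fitted ratios of -0.94 ± 0.16 for the higher dose, -0.87 ± 0.22 for the lower dose and -0.22 ± 0.22 for untransfected cells (SE). Akr1e1 ranked 13 in that list, at 0.56. Both genes were picked for low ratios in Erbb2 cells, which gave 12 of these 15 arrays, so the choice itself favours a near rank. Zcchc4, Npm1, Pkm and Aldoa had -0.73, -0.68, -0.69 and -0.69 in Erbb2 cells at 10 µM. In untransfected cells they had -0.71, -0.63, -0.76 and -1.09, lower values than the -0.40 of Akr1c18.

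For Akr1e1 the nearest genes over 16 arrays were the ribosomal protein gene Rpl8 (0.31), the splicing factor Luc7l3 (0.32), the replication clamp Pcna (0.33), the bisphosphoglycerate mutase Bpgm (0.35) and the hypoxia factor Hif1a (0.37), against a median of 0.86 over 4979 genes. The choice by likeness fixes that their group values follow those of Akr1e1. Their fitted ratios ran from -0.55 to -0.48 at 10 µM, from -0.48 to -0.18 at 5 µM and from -0.10 to 0.11 in untransfected cells. All genes share the arrays and their dyes, and no p-value is given for this likeness.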

How the data were processed

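The authors deposited log2 ratios of the 2 channels of each array, centred near 0, with medians from -0.03 to 0.05. The log base was read from the spacing of the most frequent values. Per the labels' protocols, total RNA was labelled indirectly with Cy3 or Cy5. The sources used here name no image analysis, background correction or normalization. Each array held a repeated value between 15.4 and 16.6, far above the others, and these 1755 cells of 325680 were set to missing beside 38737 without a value. No column was left unused.

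Values were read as Cy5 over Cy3, and arrays with the treated RNA in Cy3 were turned. Probes needed a value on 3 of 4 or 6 of 8 arrays of each group and at least 1 per dye arrangement. Of 20355 probes, 14813 remained and were averaged by gene symbol into 12420 features. The platform annotation, an old one, gave the symbols, and 13994 of 14030 were matched to RefSeq by Entrez Gene ID with 0 changed. All 16 arrays were fitted with limma 3.58.1 in R 4.3.3, with a coefficient for each group and a dye term, and eBayes. Tests were two-sided, with p-values adjusted by Benjamini-Hochberg across the features and a threshold of 0.05. The procedure was tested on simulated data. Both genes and all gene lists were chosen with earlier results of these data known.

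Named genes were Akr1c18, Akr1e1, their measured relatives, the measured genes within 2 Mb, up to 4 members of each other list past the threshold, and the 5 genes nearest to each by root mean square difference. Arrays were not paired by the replicate numbers in the titles. Residual correlations of 10 same-numbered pairs ran from -0.11 to 0.13, with 3 over 0.1. Pairs with different numbers were not compared, so this check cannot decide whether the numbers pair arrays. Alternatives changed the sign reading, the dye term, the arrays, the filter, the joining of probes and the scale.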

Additional observations from a re-analysis of the deposited data

Results flagged for a closer look

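By the rule used, Akr1c18 and Akr1e1 themselves had no array that stood apart in the sets large enough to be checked. For probe12109 of Akr1e1 in Erbb2 cells at 10 µM, array 1 had 5.46 and the next highest 1.15, a gap that fell short of the rule. Akr1c18 in untransfected cells, with 3 values, and probe12109 of Akr1e1 at 5 µM, with 2, were not checked. The values of Akr1c18 there were -0.62, 0.18 and -0.63, with 0.18 away from the others. Of 100 sets of arrays checked, those of the 2 genes included, 11 had a highest or lowest array far from the others, where chance gives about 1 in 20. All 11 were sets of other named genes. In Erbb2 cells at 10 µM, these came from array 3 for Akr7a5 (1.498), Gdi2 (-3.235), Calm4 (-1.709), Klf6 (2.568) and Col1a2 (1.083). Array 5 of that group held Akr1a1 (-1.393) and Rpl8 (-1.029). At 5 µM the arrays apart were Gdi2 on array 1 (0.924), Calml3 on array 4 (4.625) and Pitrm1 on array 3 (2.308). In untransfected cells Calm4 had 3.268 on array 4. The response of Fn1 differed between the lines at 10 µM, with 0.05 ± 0.14 in Erbb2 cells and -1.63 ± 0.20 in untransfected cells, a difference of 1.68 ± 0.25 (SE) with a limma adjusted p of 0.00361. This direction rests on the doubtful sign of the untransfected arrays, and with their treated RNA in the other dye the difference would be -1.57.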

How the results depend on the processing

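With no array turned, 2, 0 and 4 features passed in Erbb2 cells at 10 µM, in Erbb2 cells at 5 µM and in untransfected cells, in place of 157, 26 and 339. Akr1c18 then had 0.19, -0.047 and 0.37, and Akr1e1 had -0.051 at 10 µM and 0.25 in untransfected cells. With the treated RNA of untransfected cells in the other dye the genes had 0.40 and 0.029 there. Each group fitted on its own arrays gave 22, 0 and 0 features, with 15 higher and 7 lower at 10 µM against 50 and 107 in the shared fit. The count at 5 µM was 48 over features with a value on all 16 arrays, where Akr1c18 drops out for want of a value, 16 by single probes and 46 with arrays scaled alike (33 higher and 13 lower, against 22 and 4 before). Without arrays 3, 5 and 6 of Erbb2 cells at 10 µM 57 features passed there, 27 higher and 30 lower. Leaving out each of 16 arrays gave 103 to 145 features at 10 µM (103 without array 1 or 4), 5 to 24 at 5 µM and 213 to 372 in untransfected cells (222 without array 1, 213 without array 2). Over the same fits Akr1c18 ran from -1.13 to -1.05 at 10 µM, -0.98 to -0.77 at 5 µM and -0.63 to -0.23 in untransfected cells, and Akr1e1 from -0.85 to -0.73, -0.26 to -0.15 and -0.12 to 0.10. With the replicate block, 156, 25 and 335 features passed, Akr1c18 had -0.40 and Akr1e1 -0.03 in untransfected cells, and the block changed no call of either gene there. It ended the call of Vim, so that 3 fibroblast markers passed in place of 4. The cause of these shifts was not tested. The number of arrays and the unknown signal over background limit the precision.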
